A study of Mus musculus with 8 samples.

Results

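The 39 genes of the mouse Hox clusters and the long intergenic non-coding RNA Halr1 were followed in 8 RNA-seq libraries of mouse embryonic stem cells. Members were chosen by symbol alone (Hoxa, Hoxb, Hoxc or Hoxd followed by digits, plus Halr1), which gave 40 of the 55573 genes in the table: 11 Hoxa, 10 Hoxb, 9 Hoxc and 9 Hoxd genes and Halr1. The 4 groups held 2 libraries each. 2C::GFP+/SA cells received 2 µM SGC0946, an inhibitor of the histone methyltransferase DOT1L, and 2 µM AS8351, an inhibitor of the histone demethylase KDM5B, in serum-replacement medium in which IL6/sIL-6R (interleukin 6 with its soluble receptor) took the place of LIF. 2C::GFP+/SGC cells received 2 µM SGC0946 in the same base medium with LIF. 2C::GFP+ cells were labelled untreated and carried a green fluorescent reporter named after the 2-cell stage, and mESC were wild-type cells, also labelled untreated. The labels give neither the promoter that drives the reporter, nor the ESC line, nor whether replicates were separate cultures, so p-values here measure only the spread between these libraries. For the untreated groups the labels offer either N2B27 medium with LIF, PD03 and CHIR or KnockOut medium with LIF, so medium and reporter cannot be told apart between 2C::GFP+ and mESC, nor medium and treatment between the treated groups and 2C::GFP+. The columns used for 2C::GFP+ bear the name of the serum replacement and were assigned to that group by elimination, and each comparison with 2C::GFP+ rests on this.

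The 2C::GFP+/SA libraries held 96895327 and 12299931 counts, the 2C::GFP+/SGC libraries 133694657 and 13902619, the 2C::GFP+ libraries 126660609 and 16474223, and the mESC libraries 145810034 and 19544870, so the first library of each group was 7.46 to 9.62 times deeper than the second. A count of 3 corresponded to 0.0206 CPM in the deepest library and 0.244 CPM in the shallowest (CPM, library-scaled counts). Summed CPM of 10 marker genes of 2-cell-like cells were 7643 and 3124 for 2C::GFP+/SA, 1423 and 1493 for 2C::GFP+/SGC, 578 and 750.3 for 2C::GFP+, and 3.16 and 8.83 for mESC. The 10 pluripotency markers summed to between 4093 and 6752 CPM in every library, so all libraries held the defining RNAs of embryonic stem cells. Markers of other lineages differed between groups and are given beside the results they moved with. In such bulk samples, fewer cells that express a gene and less RNA per cell cannot be told apart.

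Hox genes encode homeodomain transcription factors that set position along the head-to-tail axis of the embryo and along the limbs. Within a cluster the low-numbered genes lie at the 3′ end and are switched on earlier and further forward than the high-numbered genes at the 5′ end. In embryonic stem cells the clusters are textbook targets of Polycomb repression, and DOT1L is best known for sustaining HOXA genes in MLL-rearranged leukaemia. Halr1 is transcribed from the gene desert beside the Hoxa cluster and has been described as a local regulator of the Hoxa genes in mouse embryonic stem cells.

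In GENCODE M21 (GRCm38), Halr1 (ENSMUSG00000085412) is a lincRNA on the plus strand at chr6:52102949-52113684, 41.9 kb outside the Hoxa cluster. The Hoxa cluster follows on the minus strand at chr6:52155590-52260880, Hoxb lies on the plus strand at chr11:96194316-96368256, Hoxc on the plus strand at chr15:102921103-103036852, and Hoxd on the plus strand at chr2:74668310-74765142. Of the 40 members, 23 matched a RefSeq promoter entry (GRCm38.p6), and the 250 bases before the start are shown for 4 called members, those with the smallest adjusted p-values among the matched ones. Each CG is in capitals, because Polycomb in embryonic stem cells mostly occupies CpG-rich promoters.
Halr1: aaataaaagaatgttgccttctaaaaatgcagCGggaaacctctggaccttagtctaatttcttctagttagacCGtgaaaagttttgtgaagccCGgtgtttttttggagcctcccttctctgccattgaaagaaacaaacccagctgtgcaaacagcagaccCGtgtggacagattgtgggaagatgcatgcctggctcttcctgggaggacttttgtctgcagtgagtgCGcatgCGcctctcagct
Hoxd13: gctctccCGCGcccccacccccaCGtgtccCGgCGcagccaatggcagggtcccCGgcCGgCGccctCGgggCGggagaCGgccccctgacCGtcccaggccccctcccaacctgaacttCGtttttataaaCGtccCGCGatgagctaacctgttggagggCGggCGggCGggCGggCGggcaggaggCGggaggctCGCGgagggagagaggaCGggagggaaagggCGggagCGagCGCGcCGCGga
Hoxa13: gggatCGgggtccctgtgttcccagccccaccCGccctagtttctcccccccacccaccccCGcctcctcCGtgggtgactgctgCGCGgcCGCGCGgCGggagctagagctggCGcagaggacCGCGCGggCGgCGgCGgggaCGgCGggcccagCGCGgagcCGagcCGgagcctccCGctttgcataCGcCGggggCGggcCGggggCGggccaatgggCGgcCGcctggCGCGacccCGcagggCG
Hoxc4: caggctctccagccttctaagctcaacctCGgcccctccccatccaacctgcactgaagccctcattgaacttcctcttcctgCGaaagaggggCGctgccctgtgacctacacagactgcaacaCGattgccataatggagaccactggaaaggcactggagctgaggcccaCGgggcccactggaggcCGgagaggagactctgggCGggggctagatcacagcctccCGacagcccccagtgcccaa
These windows lie at chr6:52102699-52102948 (plus strand), chr2:74667975-74668224 (plus strand), chr6:52260881-52261130 (minus strand) and chr15:103034145-103034394 (plus strand). The Hoxc4 window precedes a RefSeq start that lies inside the GENCODE gene, whose own start is at 103018934. Halr1 holds 6 CpG, Hoxd13 31, Hoxa13 35 and Hoxc4 8. Over the 24 windows of 22 Hox genes the median was 12.5 CpG (range 2 to 35), and over all 32851 windows it was 6, so Halr1 stood at the median of all windows and Hoxd13 and Hoxa13 near the top of the Hox range. Searched on both strands, the TATA box TATAAA occurred in 4 of 25 member windows (Hoxa10, Hoxb8, Hoxd13 and Hoxd4) against 12.4% of all windows, and CCAAT occurred in 14 of 25 against 33.8%. The CDX motif TTTATNG was found in 2 member windows (9.81% of all windows), the TCF/LEF motif CTTTGAT in 1 (3.21%) and the PBX-HOX motif TGATTNAT in 2 (2.82%). The octamer ATTTGCAT and the DUX motif were in 0 of 25 member windows, against 1.60% and 0.177% of all windows. These matches describe letters in short windows and not binding.

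Halr1 was abundant in all libraries that carried the reporter and close to the detection limit in wild-type cells. It stood at 30.4 and 27.2 CPM in 2C::GFP+/SA, 40.5 and 36.0 CPM in 2C::GFP+/SGC, 57.1 and 51.3 CPM in 2C::GFP+, and 0.131 and 0.205 CPM in mESC. The groups did not overlap, and the level was highest in 2C::GFP+, next in 2C::GFP+/SGC, then in 2C::GFP+/SA, and lowest in mESC. Against mESC, Halr1 rose in 2C::GFP+ by 8.55 ± 0.27 on the log2 scale (SE; adjusted p = 3.97e-10, edgeR quasi-likelihood test). Of the 20608 genes tested, 15.2% rose and 9.12% fell in this comparison at an adjusted p under 0.05, 24.3% in all. Between neighbours in the order, 2C::GFP+/SGC stood 0.50 ± 0.17 below 2C::GFP+ on the log2 scale, which did not pass the threshold (edgeR adjusted p = 0.337). 2C::GFP+/SA stood 0.41 ± 0.17 below 2C::GFP+/SGC, which did not pass either (adjusted p = 0.114). Over both steps, Halr1 fell by 0.91 ± 0.17 on the log2 scale in 2C::GFP+/SA against 2C::GFP+ (adjusted p = 0.00127), while 27 of the 32 tested members had a positive log2 difference in that comparison. Both calls on Halr1 held under each of the 16 alternative settings, leave-one-out included. On the authors' length-scaled TPM values, Halr1 had 88.7 and 99.8 TPM in 2C::GFP+/SA, 146 and 134 TPM in 2C::GFP+/SGC, 184 and 183 TPM in 2C::GFP+, and 0.425 and 0.725 TPM in mESC. On this scale Halr1 was the highest member in each of the 6 libraries with the reporter, and in 2C::GFP+ it was above the summed level of all 39 Hox genes (27.7 and 43.8 TPM).

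**Figure D1:**
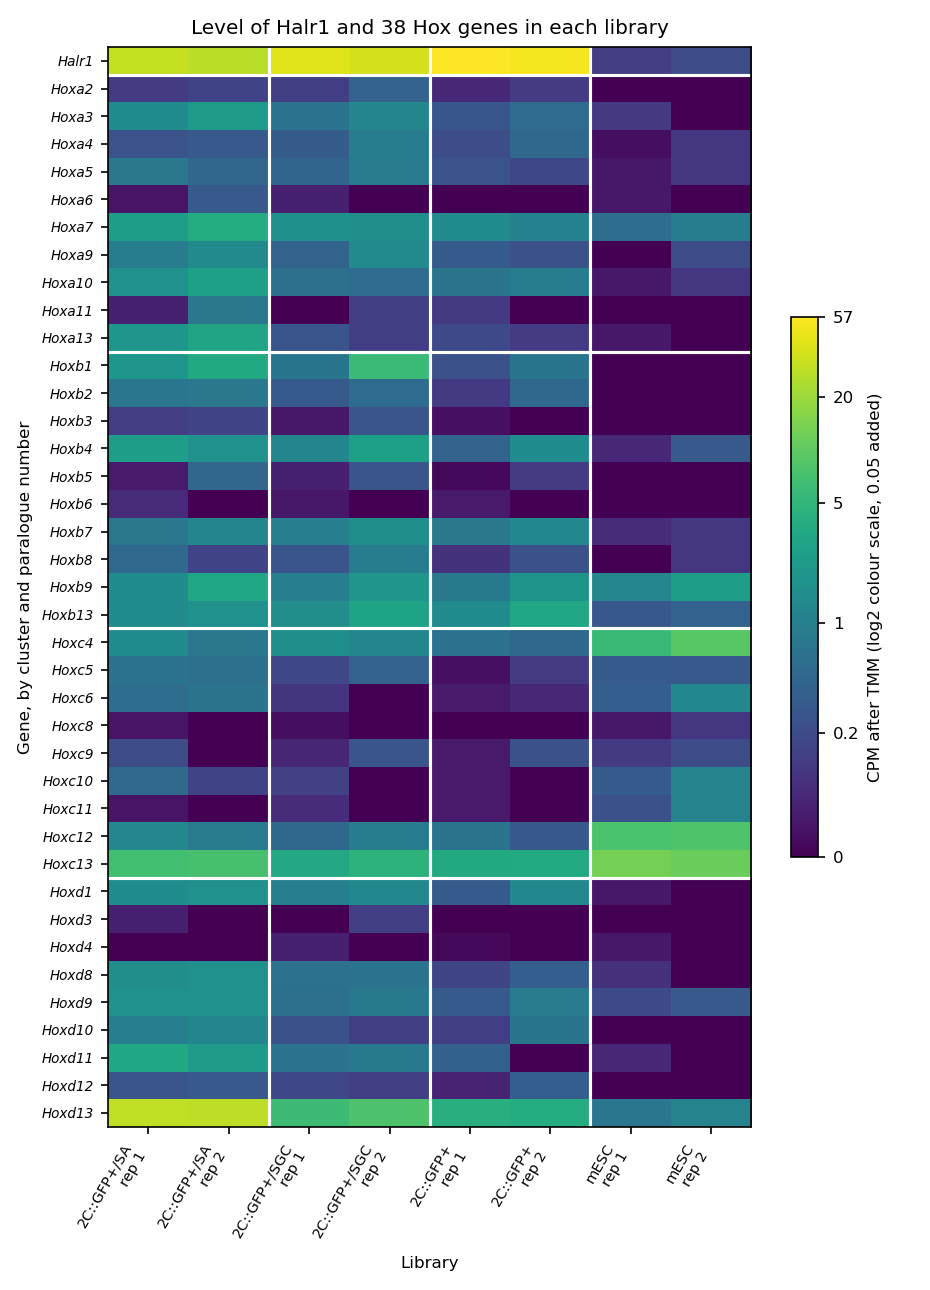
Level of Halr1 and 38 of the Hox genes (rows, by cluster and paralogue number) in the 8 libraries (columns, replicates side by side) as CPM after TMM scaling, on a log2 colour scale with 0.05 added. The Halr1 row is bright in the 6 libraries with the reporter and dark in mESC (0.131 and 0.205 CPM), and the Hoxc4, Hoxc12 and Hoxc13 rows are brightest in mESC.

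The 4 clusters shared the Hox RNA very differently in wild-type cells and in cells with the reporter. By summed TPM, Hoxc held 17.0 and 12.9% of the RNA of the 39 Hox genes in 2C::GFP+/SA, 21.7 and 16.5% of it in 2C::GFP+/SGC, 27.7 and 17.0% of it in 2C::GFP+, and 89.97 and 87.7% of it in mESC. For Hoxd the shares were 49.0 and 41.9% for 2C::GFP+/SA, 31.3 and 22.4% for 2C::GFP+/SGC, 26.0 and 26.5% for 2C::GFP+, and 2.62 and 2.94% for mESC. Wild-type Hox RNA was thus almost all Hoxc, whereas no cluster held more than 49.0% in a library with the reporter. Hoxa took 21.2 to 30.1% in those 6 libraries and 3.44 and 2.61% in mESC, and Hoxb took 12.8 to 34.4% and 3.96 and 6.72%. A shift of shares alone need not mean that each cluster changed: the summed level of Hoxc itself was 15.3 and 16.9 TPM in 2C::GFP+/SA, 9.63 and 13.02 TPM in 2C::GFP+/SGC, 7.68 and 7.47 TPM in 2C::GFP+, and 50.1 and 61.9 TPM in mESC. Hoxd summed to 44.2 and 54.8 TPM in 2C::GFP+/SA, 13.9 and 17.7 TPM in 2C::GFP+/SGC, 7.22 and 11.6 TPM in 2C::GFP+, and 1.46 and 2.08 TPM in mESC. For both clusters the sums of 2C::GFP+ and mESC lay apart, in opposite directions. Hoxa summed to 19.1 and 39.3 TPM in 2C::GFP+/SA, 11.1 and 21.1 TPM in 2C::GFP+/SGC, 7.04 and 9.93 TPM in 2C::GFP+, and 1.92 and 1.84 TPM in mESC. Hoxb summed to 11.5 and 19.6 TPM in 2C::GFP+/SA, 9.73 and 27.2 TPM in 2C::GFP+/SGC, 5.81 and 14.8 TPM in 2C::GFP+, and 2.21 and 4.74 TPM in mESC. In Hoxa and Hoxb the shallower second library was the higher of its pair in each group with the reporter, and the pairs of Hoxb in these groups overlap. The sums are a description and were not tested.

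Single genes carried much of each cluster. Hoxd13, a regulator of digit and genital development at the 5′ end of Hoxd, held 76.5 and 75.9% of the Hoxd TPM in 2C::GFP+/SA, 63.1 and 65.4% of it in 2C::GFP+/SGC, 75.0 and 47.0% of it in 2C::GFP+, and 65.2 and 75.9% of it in mESC. Hoxc13, needed for hair shafts, was the highest Hoxc gene in the libraries with the reporter (51.1 to 70.2% of the Hoxc TPM), and its neighbour Hoxc12 was the highest in mESC (47.7 and 44.0%).

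**Figure D2:**
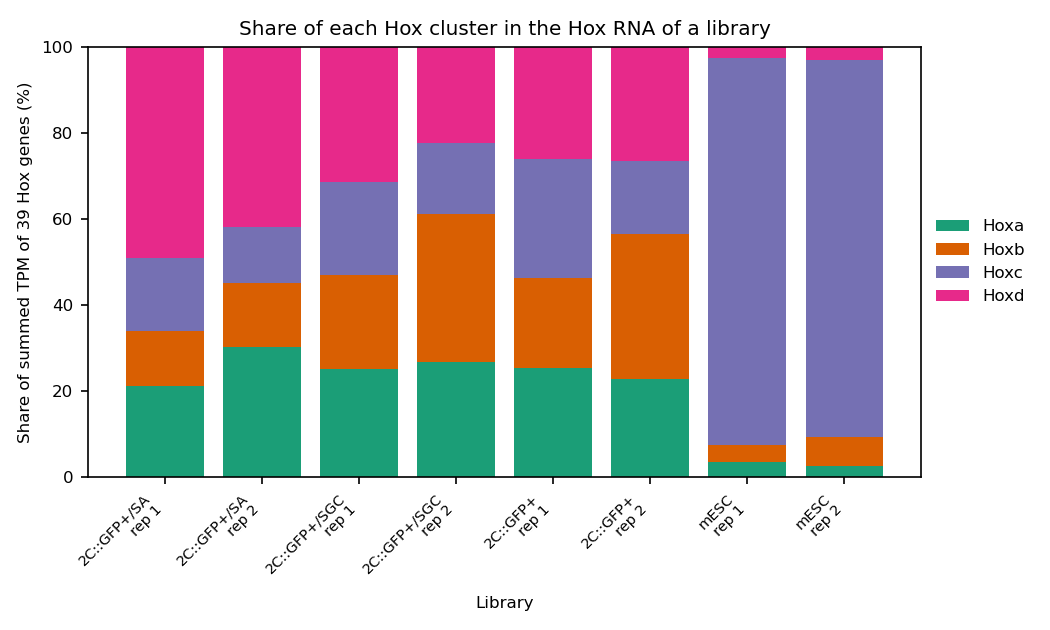
Share of each Hox cluster in the summed TPM of the 39 Hox genes (vertical axis, percent), 1 stacked bar per library. Hoxc fills 89.97 and 87.7% of the 2 mESC bars and 12.9 to 27.7% of the 6 bars with the reporter, and Hoxd is largest in 2C::GFP+/SA (49.0 and 41.9%).

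Of the 40 members, 32 had enough counts to be tested. Hoxa2, Hoxa6, Hoxa11, Hoxb3, Hoxb6, Hoxc8, Hoxd3 and Hoxd4 were not tested, and their highest level in any library lay between 0.0429 and 0.770 CPM. At least 1 count was found for 39 and 34 members in 2C::GFP+/SA, 38 and 33 members in 2C::GFP+/SGC, 37 and 30 members in 2C::GFP+, and 28 and 23 members in mESC. Members could pass the filter through high counts in a single group, so the counts below describe the tested members only.

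In 2C::GFP+ against mESC, Hoxc genes fell while genes of the other clusters rose. Among the 32 tested members 11 rose (34.4%, against 15.2% of all tested genes) and 6 fell (18.8%, against 9.12%). All 6 that fell were Hoxc genes, 6 of the 8 Hoxc genes tested, and the log2 difference was negative in all 8 (median -3.75; 0.04 over all genes). Hoxc4, best known for a role in lymphocytes, had 1.42 and 0.770 CPM in 2C::GFP+/SA, 1.60 and 1.22 CPM in 2C::GFP+/SGC, 0.642 and 0.475 CPM in 2C::GFP+, and 5.91 and 9.08 CPM in mESC. Hoxc12 had 1.24 and 0.847 CPM in 2C::GFP+/SA, 0.479 and 0.951 CPM in 2C::GFP+/SGC, 0.701 and 0.297 CPM in 2C::GFP+, and 7.76 and 8.11 CPM in mESC. Hoxc13 had 6.79 and 7.39 CPM in 2C::GFP+/SA, 3.41 and 4.76 CPM in 2C::GFP+/SGC, 3.51 and 3.68 CPM in 2C::GFP+, and 13.1 and 11.2 CPM in mESC. All 3 genes were higher in both mESC libraries than in each of the 6 others. Hoxc4 fell by 3.67 ± 0.47 on the log2 scale (adjusted p = 7.62e-05), Hoxc12 fell by 3.82 ± 0.50 (adjusted p = 9.03e-05) and Hoxc13 fell by 1.76 ± 0.29 (adjusted p = 0.000522), and these 3 calls held under every alternative. The other 3 stood at low counts. Hoxc6, a thoracic gene, averaged 0.0464 ± 0.0184 CPM in 2C::GFP+ and 0.823 ± 0.650 CPM in mESC (SD, n = 2), and fell by 4.26 ± 1.13 (adjusted p = 0.0134). Hoxc10, which acts in lumbar motor neurons, averaged 0.0167 ± 0.0236 and 0.736 ± 0.556 CPM in 2C::GFP+ and mESC, and fell by 4.59 ± 1.28 (adjusted p = 0.0179). Hoxc11 averaged 0.0167 ± 0.0236 and 0.681 ± 0.633 CPM in 2C::GFP+ and mESC, and fell by 4.50 ± 1.40 (adjusted p = 0.0309). These 3 calls rested on single libraries: without the first 2C::GFP+ library the adjusted p was 0.167 for Hoxc6, 0.118 for Hoxc10 and 0.151 for Hoxc11, and without the second mESC library it was 0.0995, 0.0901 and 0.256 in the same order. Without the second 2C::GFP+ library it was 0.0539 for Hoxc10 and 0.105 for Hoxc11. Leaving out the first 2C::GFP+ or the second mESC library therefore left 3 Hoxc genes called in place of 6. Markers of posterior mesoderm and the primitive streak moved the same way: 4 of 10 tested fell and 0 rose, and their summed level was 9.48 and 11.1 CPM in 2C::GFP+ against 38.1 and 65.8 CPM in mESC. The list shares Cdx2 and Evx1 with the homeobox genes described further on. None of the 12 markers was at 0 in all libraries, and their part in the Hoxc result was not tested.

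Outside Hoxc, 10 of the 23 tested Hox genes rose in 2C::GFP+ against mESC and 0 fell, and 22 of 23 had a positive log2 difference. Their median was 2.75, or 2.68 with genes that had no mESC count set at their lower bound. The exception in sign was Hoxb9, with 0.809 and 1.84 CPM in 2C::GFP+ and 1.27 and 2.46 CPM in mESC, where the libraries overlapped. In Hoxd, 4 of 7 tested genes rose. Hoxd13 had 29.4 and 28.6 CPM in 2C::GFP+/SA, 6.13 and 7.88 CPM in 2C::GFP+/SGC, 4.25 and 3.86 CPM in 2C::GFP+, and 0.743 and 1.13 CPM in mESC, so that no pair of groups overlapped. It rose by 2.22 ± 0.29 on the log2 scale in 2C::GFP+ against mESC (adjusted p = 9.16e-05), a call that held under every alternative. Hoxd1, expressed in pain-sensing neurons, had 1.49 and 1.69 CPM in 2C::GFP+/SA, 1.00 and 1.29 CPM in 2C::GFP+/SGC, 0.317 and 1.31 CPM in 2C::GFP+, and 0.0291 and 0 CPM in mESC. Its rise was 4.81 ± 0.98 (adjusted p = 0.00275), despite a wide gap between its 2C::GFP+ libraries. Hoxd10, a lumbar gene, had 0.133 and 0.712 CPM in 2C::GFP+ and no count in mESC, and was at least 10.7-fold higher against a floor of 3 counts over the group (adjusted p = 0.00666). Hoxd12, which acts in the limb, had 0.0500 and 0.356 CPM in 2C::GFP+ and no count in mESC, at least 4.59-fold higher (adjusted p = 0.0407). The call on Hoxd10 ended without the first mESC library (adjusted p = 0.139), and that on Hoxd12 without the second 2C::GFP+ library (0.171) or the second mESC library (0.0692).

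In Hoxb, 4 of 8 tested genes rose in 2C::GFP+. Hoxb13, a tail-end gene also active in prostate, had 1.45 and 1.69 CPM in 2C::GFP+/SA, 1.56 and 2.92 CPM in 2C::GFP+/SGC, 1.43 and 3.32 CPM in 2C::GFP+, and 0.291 and 0.410 CPM in mESC. Hoxb7 had 0.778 and 1.23 CPM in 2C::GFP+/SA, 0.980 and 1.63 CPM in 2C::GFP+/SGC, 0.792 and 1.31 CPM in 2C::GFP+, and 0.0728 and 0.103 CPM in mESC. In both genes the 3 groups with the reporter overlapped and lay above mESC. In 2C::GFP+ both rose against mESC, Hoxb13 by 2.78 ± 0.60 (adjusted p = 0.00378) and Hoxb7 by 3.64 ± 0.74 (adjusted p = 0.00258). Hoxb4, known for expanding blood stem cells, had 0.425 and 1.48 CPM in 2C::GFP+ and 0.0583 and 0.308 CPM in mESC, and rose by 2.79 ± 0.92 (adjusted p = 0.0428). Hoxb2, a hindbrain gene, had 0.117 and 0.475 CPM in 2C::GFP+ and no count in mESC, at least 8.41-fold higher (adjusted p = 0.00995). Without the first mESC library the adjusted p was 0.0650 for Hoxb13, 0.0582 for Hoxb7, 0.373 for Hoxb4 and 0.178 for Hoxb2. The call on Hoxb4 also ended without the second 2C::GFP+ library (0.233) or the first 2C::GFP+/SGC library (0.0559). Hoxb1, which gives rhombomere identity in the hindbrain, had 0.234 and 0.712 CPM in 2C::GFP+ and no count in mESC, and narrowly missed the threshold (adjusted p = 0.0511). Alternatives called it higher, among them DESeq2 (adjusted p = 0.000250), the fit of only the 4 libraries compared (0.00803) and the stricter filter (0.0477).

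In Hoxa, 2 of 8 tested genes rose in 2C::GFP+ against mESC, and all 8 log2 differences were positive. Hoxa10, needed in the uterus, had 1.73 and 2.695 CPM in 2C::GFP+/SA, 0.615 and 0.544 CPM in 2C::GFP+/SGC, 0.701 and 0.950 CPM in 2C::GFP+, and 0.0291 and 0.103 CPM in mESC. All libraries with the reporter lay above both mESC libraries. Hoxa10 rose by 4.15 ± 0.80 (adjusted p = 0.00186). The call on Hoxa10 ended without the first mESC library (adjusted p = 0.0648). Without the first mESC library only 4 members in all were called higher in place of 11. Of the exons, 27.3% of Hoxb2 is shared with the antisense RNA Hoxb3os. The strand setting of the counting is not given in the sources used here, so reads of these 2 genes cannot be told apart there. Hoxd10 shares 5.73% of its exons with Gm28309 on the same strand.

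**Figure D3:**
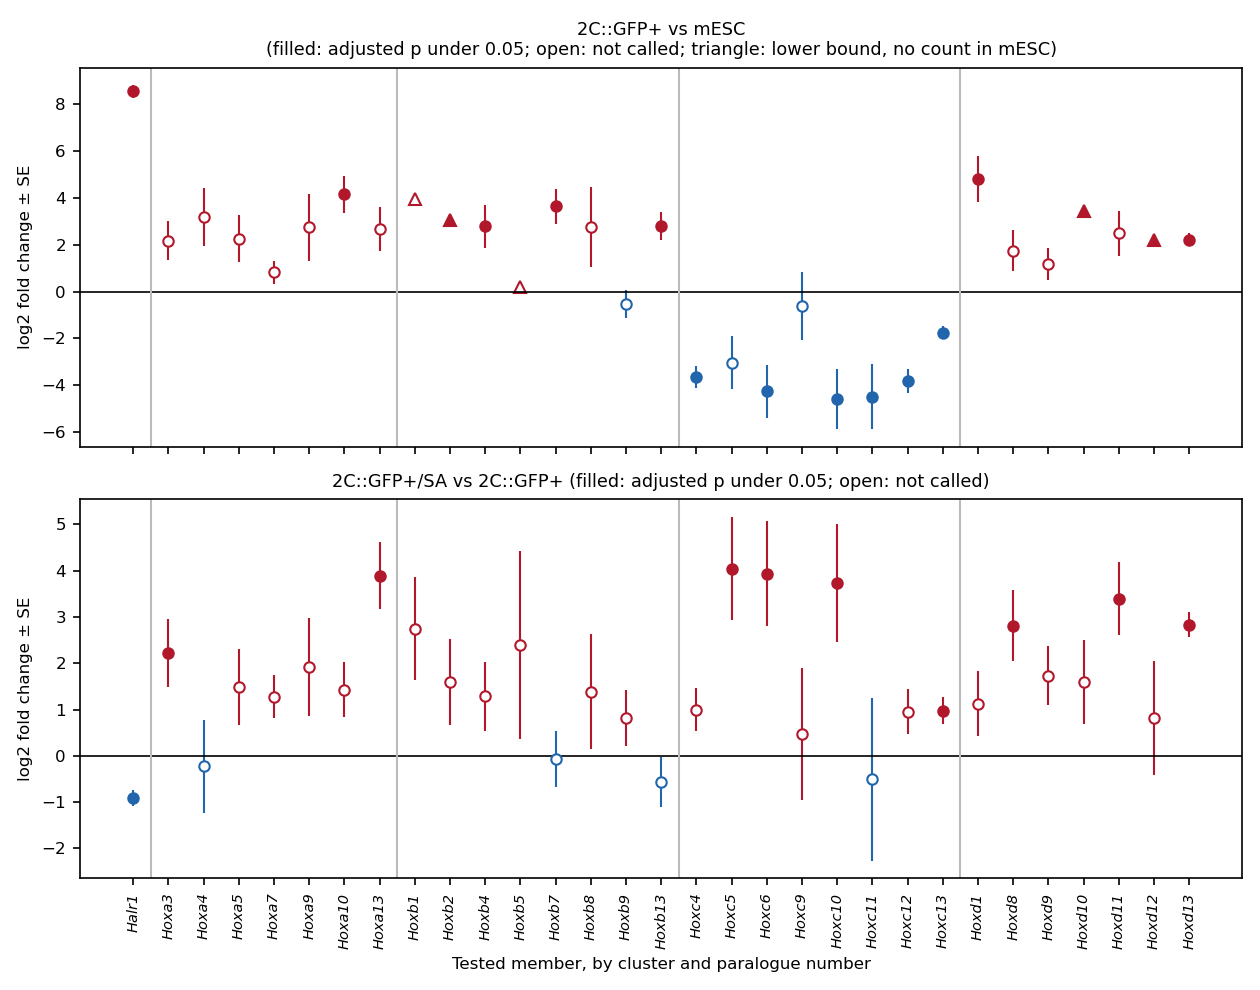
Log2 fold change with its SE for 31 of the tested members (horizontal axis, by cluster), for 2C::GFP+ against mESC (upper panel) and 2C::GFP+/SA against 2C::GFP+ (lower panel). Filled points passed an adjusted p of 0.05, and triangles are lower bounds for genes without a mESC count; the Hoxc points lie below 0 in the upper panel, and Halr1 is the filled point below 0 in the lower panel (-0.91).

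In 2C::GFP+/SGC against 2C::GFP+, which differ in SGC0946 and possibly in medium, 0 of 32 members passed the adjusted threshold in edgeR, as did 0.0% of all tested genes. At an unadjusted p under 0.05 there were 5 members, against 2037 genes in all (9.88%). DESeq2 called 1 member, Hoxb1 (adjusted p = 0.0314), and 218 genes higher and 53 lower in all, and limma called 0 members. The 5 members were Halr1 (lower) and Hoxb1, Hoxc4, Hoxc5 and Hoxd13 (higher in 2C::GFP+/SGC). Hoxb1 had 0.730 and 6.05 CPM in 2C::GFP+/SGC and 0.234 and 0.712 CPM in 2C::GFP+. The 2C::GFP+/SGC libraries lay far apart, and the edgeR log2 difference of 3.00 ± 1.11 had an adjusted p of 0.454. Hoxd13 differed by 0.77 ± 0.26 (adjusted p = 0.349) and Hoxc4 by 1.31 ± 0.46 (adjusted p = 0.367). Of the 32 members, 28 had a positive log2 difference, with a median of 0.84 (0.03 over all genes), and neither the sign nor the median was tested.

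In 2C::GFP+/SA against 2C::GFP+, 9 Hox genes rose and Halr1 fell, and 28.7% of all tested genes were called in either direction. The 9 made up 28.1% of the tested members, against 14.9% of all genes that rose, and Halr1 was the 1 of 32 that fell, against 13.8% of all genes. The 9 comprised 2 of 8 tested Hoxa genes, 0 of 8 Hoxb (edgeR), 4 of 8 Hoxc and 3 of 7 Hoxd genes, and the median over the 32 members was 1.46 (0.01 over all genes). Hoxd13 rose by 2.83 ± 0.27 on the log2 scale (adjusted p = 1.19e-05) and stood at 29.4 and 28.6 CPM in 2C::GFP+/SA. Hoxa13, its paralogue in limb ends and the urogenital tract, had 1.99 and 3.00 CPM in 2C::GFP+/SA, 0.258 and 0.136 CPM in 2C::GFP+/SGC, 0.184 and 0.119 CPM in 2C::GFP+, and 0.0291 and 0 CPM in mESC. All other libraries stood at or below 0.258 CPM, and Hoxa13 rose in 2C::GFP+/SA by 3.89 ± 0.73 (adjusted p = 0.00143). Hoxd11, a forearm gene, had 3.33 and 2.31 CPM in 2C::GFP+/SA, 0.687 and 0.815 CPM in 2C::GFP+/SGC, 0.400 and 0 CPM in 2C::GFP+, and 0.0583 and 0 CPM in mESC. It rose by 3.39 ± 0.79 (adjusted p = 0.00614), and these 3 calls and that on Halr1 held under every alternative. The size for Hoxd11 depends on the 2C::GFP+ library used: it was 2.84 without the second, which had no count, and has no finite value against the second alone.

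The other 6 calls in 2C::GFP+/SA against 2C::GFP+ were less firm. Hoxd8 had 1.57 and 1.69 CPM in 2C::GFP+/SA, 0.644 and 0.679 CPM in 2C::GFP+/SGC, 0.167 and 0.356 CPM in 2C::GFP+, and 0.0874 and 0 CPM in mESC. Hoxa3, which acts in the pharyngeal arches and thymus, had 1.46 and 2.16 CPM in 2C::GFP+/SA, 0.687 and 1.22 CPM in 2C::GFP+/SGC, 0.284 and 0.534 CPM in 2C::GFP+, and 0.109 and 0 CPM in mESC. In both genes the 4 groups stood in the same order without overlap. Hoxd8 rose by 2.82 ± 0.76 (adjusted p = 0.0132), Hoxa3 by 2.23 ± 0.73 (adjusted p = 0.0352) and Hoxc13 by 0.98 ± 0.29 (adjusted p = 0.0198). Hoxc5, Hoxc6 and Hoxc10 stayed low, between 0.154 and 0.693 CPM in 2C::GFP+/SA and between 0 and 0.119 CPM in 2C::GFP+. Hoxc5 averaged 0.648 ± 0.0446 CPM in 2C::GFP+/SA and 0.0677 ± 0.0722 CPM in 2C::GFP+ (SD, n = 2), and rose by 4.05 ± 1.12 (adjusted p = 0.0154). Hoxc6 rose by 3.94 ± 1.13 (adjusted p = 0.0184) and Hoxc10 by 3.74 ± 1.28 (adjusted p = 0.0412). Without the first 2C::GFP+ library all 6 calls ended, with adjusted p of 0.145 for Hoxd8, 0.240 for Hoxa3, 0.106 for Hoxc13, 0.214 for Hoxc5, 0.202 for Hoxc6 and 0.178 for Hoxc10, which left 3 Hox genes called higher in place of 9. Without the first 2C::GFP+/SA library, 4 were called, and the adjusted p was 0.0528 for Hoxd8, 0.0635 for Hoxa3, 0.0660 for Hoxc5, 0.0534 for Hoxc6 and 0.410 for Hoxc10. Hoxa3 also lost its call without the second 2C::GFP+/SA library (0.0926). Without the second 2C::GFP+ library the adjusted p was 0.0559 for Hoxa3, 0.0740 for Hoxc13 and 0.0998 for Hoxc10. Exons are shared in part between Hoxc5 (5.37%) and Hoxc10 (8.70%), between Hoxa3 (27.1%) and antisense or overlapping models, and between Hoxd11 (10.8%) and Gm28309.

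Hoxc6, Hoxc10 and Hoxc13 were called lower in 2C::GFP+ against mESC and higher in 2C::GFP+/SA against 2C::GFP+; the 2 comparisons share the 2C::GFP+ libraries. Hoxc13 remained below the mESC libraries in 2C::GFP+/SA by level, and Hoxc4 and Hoxc12, with 0.770 to 1.42 CPM in 2C::GFP+/SA, were not called in this comparison (adjusted p = 0.124 and 0.166). Among Hoxb genes the nearest to a call in 2C::GFP+/SA was Hoxb1, with 1.99 and 3.54 CPM in 2C::GFP+/SA and 0.234 and 0.712 CPM in 2C::GFP+ (adjusted p = 0.109). It was the 1 Hoxb gene at an unadjusted p under 0.05, and it was called higher by DESeq2 (adjusted p = 0.00609), by the fit of only the 4 libraries compared (0.0204), and without the first (0.0143) or the second 2C::GFP+/SGC library (0.00764).

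Hoxa4, Hoxa5, Hoxa7, Hoxa9, Hoxb1, Hoxb5, Hoxb8, Hoxb9, Hoxc9 and Hoxd9 were tested and called by the edgeR fit of all 8 libraries in none of the 4 comparisons, although Hoxa7, Hoxa9, Hoxb1 and Hoxd9 were called in some of them under alternatives. Hoxa7 had 2.53 and 3.77 CPM in 2C::GFP+/SA, 1.65 and 1.56 CPM in 2C::GFP+/SGC, 1.43 and 1.07 CPM in 2C::GFP+, and 0.590 and 0.924 CPM in mESC. Hoxd9 had 1.75 and 1.69 CPM in 2C::GFP+/SA, 0.630 and 0.815 CPM in 2C::GFP+/SGC, 0.317 and 0.831 CPM in 2C::GFP+, and 0.189 and 0.308 CPM in mESC. Both were highest in 2C::GFP+/SA without overlap and came near the threshold against 2C::GFP+ (adjusted p = 0.0536 for Hoxa7 and 0.0586 for Hoxd9). DESeq2 called Hoxa7 there (adjusted p = 0.0317), and limma on log2(TPM + 1) called Hoxd9 (0.0457). Hoxa9 was called higher in 2C::GFP+ against mESC without the second mESC library (adjusted p = 0.00435). Hoxa4, Hoxa5, Hoxb5, Hoxb8 and Hoxc9 reached at most 0.951 CPM in any library, and Hoxa9 at most 1.39 CPM.

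Fibroblast markers, which would report feeder cells, rose in the same comparison: 7 of 12 tested were higher and 0 lower in 2C::GFP+/SA. The 18 markers summed to 92.6 and 101 CPM in 2C::GFP+/SA, 53.2 and 56.0 CPM in 2C::GFP+/SGC, 35.8 and 37.9 CPM in 2C::GFP+, and 19.0 and 27.0 CPM in mESC. No marker was at 0 in all libraries, but Col3a1, Dcn, Lum, Postn, Prrx1 and Twist2 reached at most 0.272 CPM in any library, while Thy1, Fbn1 and Mmp2 made up most of the sum in the libraries with the reporter. Primitive endoderm markers summed to 304 and 635 CPM in 2C::GFP+/SA, 108 and 137 CPM in 2C::GFP+/SGC, 108 and 135 CPM in 2C::GFP+, and 236 and 341 CPM in mESC, and 8 of 12 rose and 1 fell in 2C::GFP+/SA against 2C::GFP+. Of 10 tested neural tube markers, 5 rose and 1 fell, with sums between 102 and 218 CPM over all libraries. Of 6 tested markers of extraembryonic mesoderm, 1 rose and 2 fell. Over all tested genes, 14.9% rose and 13.8% fell in 2C::GFP+/SA against 2C::GFP+. The median log2 difference was 1.64 over the fibroblast, 2.94 over the primitive endoderm, 1.13 over the neural and -0.56 over the extraembryonic mesoderm markers, beside 0.01 over all genes. Of the 2-cell-like markers 9 of 10 rose, and of the pluripotency markers 1 rose and 6 fell. The part of these cell types in the Hox values was not tested.

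**Figure D4:**
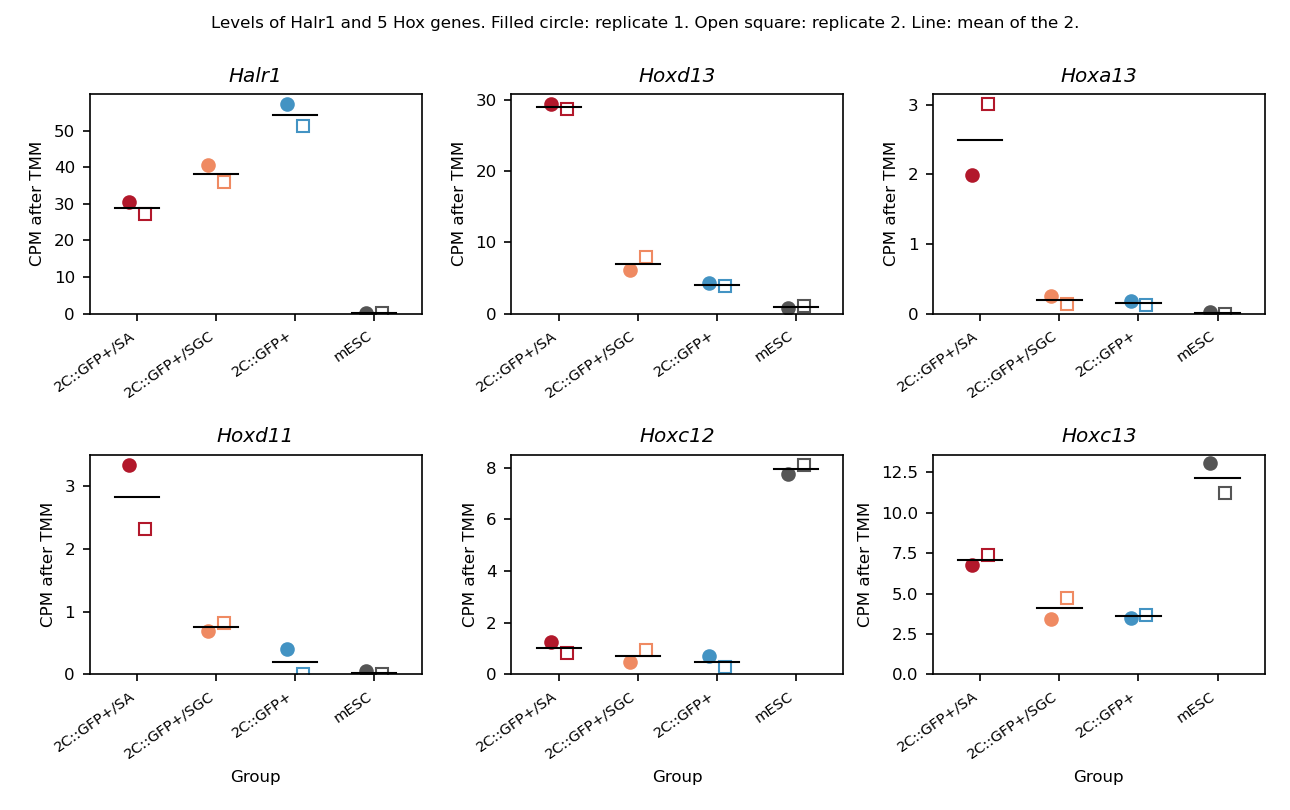
CPM after TMM of Halr1, Hoxd13, Hoxa13, Hoxd11, Hoxc12 and Hoxc13 in the 4 groups, with 1 point per library and a line at the mean of 2. Halr1 is highest in 2C::GFP+ and lower in both treated groups, Hoxd13 is at 29.4 and 28.6 CPM in 2C::GFP+/SA and at most 7.88 CPM elsewhere, and Hoxc12 and Hoxc13 are highest in mESC.

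Between the treated groups, which differ in AS8351 and in IL6/sIL-6R against LIF at once, 3 members rose in 2C::GFP+/SA over 2C::GFP+/SGC (9.38% of those tested, against 7.92% of all genes) and 0 fell (8.18% of all genes, 16.1% in either direction). At an unadjusted p under 0.05 Halr1 was the 1 lower member in edgeR, and limma on log2(TPM + 1) called it (adjusted p = 0.0441). In edgeR, Hoxd13 rose by 2.07 ± 0.26 on the log2 scale (adjusted p = 0.000203), Hoxa13 by 3.47 ± 0.71 (adjusted p = 0.00494) and Hoxa10 by 1.88 ± 0.60 (adjusted p = 0.0481). Hoxd13 and Hoxa13 stand at the 5′ end of their clusters, whereas Hoxa11 and Hoxa13 lie beyond Hoxa10. Hoxc13 and Hoxb13, at the same end of their clusters, were not called by edgeR. Hoxc13 differed by 0.82 ± 0.29 (edgeR adjusted p = 0.0667) and Hoxb13 by -0.48 ± 0.54 (adjusted p = 0.612). DESeq2 called Hoxc13 higher (adjusted p = 0.0179). The called genes were 3 of 15 tested genes of paralogue groups 9 to 13. In groups 1 to 4, 0 of 8 were called, and in groups 5 to 8, 0 of 8. This difference rests on few calls and was not tested. The calls on Hoxd13 and Hoxa13 held under every alternative. That on Hoxa10 ended without the first (adjusted p = 0.0780) or second 2C::GFP+/SA library (0.188), without the first (0.186) or second 2C::GFP+/SGC library (0.192), and without the first (0.0584) or second 2C::GFP+ library (0.0668). By cluster, the median log2 difference was 0.95 in Hoxa, -0.05 in Hoxb, 0.79 in Hoxc and 1.30 in Hoxd. In Hoxb, 4 of 8 tested genes had a positive and 4 a negative difference.

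Genes between and around the Hox genes were called in both directions. Of 96 annotated genes within 200 kb of a cluster, 27 could be tested. In 2C::GFP+ against mESC, 3 of the 27 rose and 2 fell, against 15.2% and 9.12% of all tested genes. Whether their share of calls differed from that of all genes was not tested. Skap1 beyond Hoxb1 had 0.133 and 0.475 CPM in 2C::GFP+ and 0.0146 and 0 CPM in mESC (adjusted p = 0.0318), and Calcoco1 next to Hoxc had 69.1 and 72.7 CPM in 2C::GFP+ and 41.0 and 38.7 CPM in mESC (log2 difference 0.83 ± 0.13, adjusted p = 0.000513). Gm53, which lies between Hoxb13 and Hoxb9, fell by 1.30 ± 0.25 on the log2 scale (adjusted p = 0.00209), with 6.73 and 7.72 CPM in 2C::GFP+ and 19.3 and 16.0 CPM in mESC, while Hoxb13 rose. Evx1, an even-skipped homeobox gene past Hoxa13, fell by 3.43 ± 0.77 (adjusted p = 0.00510), with 0.275 and 0 CPM in 2C::GFP+ and 2.78 and 1.33 CPM in mESC, while Hoxa10 rose.

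In 2C::GFP+/SA against 2C::GFP+, 3 neighbours rose and 2 fell (14.9% and 13.8% of all genes), among them 2 antisense RNAs from within the clusters that rose. Hotairm1, transcribed within the Hoxa cluster, had 2.03 and 1.08 CPM in 2C::GFP+/SA and 0.158 and 0.356 CPM in 2C::GFP+ (log2 difference 2.84 ± 0.83, adjusted p = 0.0195). Haglr, next to Hoxd1, had 0.668 and 1.00 CPM in 2C::GFP+/SA and 0.0834 and 0 CPM in 2C::GFP+ (log2 difference 3.67 ± 1.06, adjusted p = 0.0203). Lnpk, beyond Hoxd13 and known to share its limb enhancers, rose by 0.99 ± 0.19 (adjusted p = 0.00138), with 56.2 and 52.2 CPM in 2C::GFP+/SA and 24.8 and 29.9 CPM in 2C::GFP+. Skap2, on the far side of Halr1 from the Hoxa cluster, fell by 0.80 ± 0.14 (adjusted p = 0.000863), with 46.0 and 44.1 CPM in 2C::GFP+/SA and 79.2 and 77.4 CPM in 2C::GFP+. Halr1 and Skap2 thus fell where Hoxa3 and Hoxa13 rose, and Lnpk rose with Hoxd8, Hoxd11 and Hoxd13. Against 2C::GFP+/SGC, 1 neighbour rose (Lnpk, by 0.67 ± 0.18) and 2 fell (Skap2 and Cbx5), beside 7.92% and 8.18% of all tested genes. In 2C::GFP+/SGC against 2C::GFP+, 0 of 27 were called, as were 0.0% of all tested genes.

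Among regulators upstream of Hox genes, the caudal factors were the clearest. CDX proteins bind and activate trunk Hox genes, and Cdx1 fell by 3.07 ± 0.34 in 2C::GFP+ against mESC (adjusted p = 2.02e-05), with 2.43 and 4.27 CPM in 2C::GFP+ and 20.7 and 33.8 CPM in mESC. Cdx2 had 0.300 and 0.356 CPM in 2C::GFP+ and 4.46 and 8.21 CPM in mESC (log2 difference -4.30 ± 0.55, adjusted p = 7.62e-05). Of 19 tested ParaHox and Hox-linked homeobox genes, 3 rose and 4 fell there (median 0.84). In 2C::GFP+/SA against 2C::GFP+, 2 rose (En1 and En2) and 2 fell, Gbx2 among them (median 0.94). Over all tested genes, 15.2% rose and 9.12% fell in the first comparison, and 14.9% and 13.8% in the second. Retinoic acid, the classical inducer of 3′ Hox genes, acts through a pathway of which 7 of 18 tested genes rose and 2 fell in 2C::GFP+ against mESC. The receptor gene Rarg had 360 and 347 CPM in 2C::GFP+ and 71.3 and 40.4 CPM in mESC (log2 difference 2.65 ± 0.24, adjusted p = 6.54e-05), and the retinoid target Stra8 had 47.1 and 79.4 CPM in 2C::GFP+ and 0.138 and 0.205 CPM in mESC. The median over the 18 was 0.50 here and 1.03 in 2C::GFP+/SA against 2C::GFP+, where again 7 rose and 2 fell. Aldh1a2, which makes retinoic acid, rose by 2.35 ± 0.28 (adjusted p = 6.09e-05) with 22.5 and 19.4 CPM in 2C::GFP+/SA and 4.85 and 3.21 CPM in 2C::GFP+.

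Of 31 Polycomb genes, 6 rose and 4 fell in 2C::GFP+ against mESC, and 5 rose and 8 fell in 2C::GFP+/SA against 2C::GFP+ (medians 0.13 and -0.06). Of all tested genes 15.2% rose and 9.12% fell in the first comparison and 14.9% and 13.8% in the second. Phf19, a PRC2 partner, had 7.20 and 8.47 CPM in 2C::GFP+/SA, 20.9 and 18.1 CPM in 2C::GFP+/SGC, 18.6 and 19.2 CPM in 2C::GFP+, and 3.29 and 2.51 CPM in mESC. It rose by 2.67 ± 0.24 in 2C::GFP+ against mESC (adjusted p = 3.74e-06) and fell by 1.28 ± 0.23 in 2C::GFP+/SA against 2C::GFP+ (adjusted p = 0.00111). Kdm2b, which brings a PRC1 complex to CpG islands, rose by 1.08 ± 0.13 (adjusted p = 5.65e-05) and fell by 0.88 ± 0.13 (adjusted p = 0.000306) in the same 2 comparisons, which share the 2C::GFP+ libraries. Phc2, a PRC1 subunit, went the other way: it had 76.1 and 83.6 CPM in 2C::GFP+/SA, 29.5 and 28.9 CPM in 2C::GFP+, and 47.7 and 44.5 CPM in mESC. It fell by 0.66 ± 0.15 in 2C::GFP+ against mESC (adjusted p = 0.00483) and rose by 1.45 ± 0.15 in 2C::GFP+/SA against 2C::GFP+ (adjusted p = 1.98e-05). Jarid2 rose by 1.28 ± 0.13 in 2C::GFP+ against mESC (edgeR adjusted p = 1.04e-05). Its level was not lower in 2C::GFP+/SA, with 737 and 870 CPM there and 653 and 690 CPM in 2C::GFP+. Other developmental regulators that Polycomb marks in embryonic stem cells gave 9 of 28 higher and 0 lower in 2C::GFP+ against mESC, and 13 higher and 2 lower in 2C::GFP+/SA against 2C::GFP+; Gata6, an endoderm factor, led with 20.3 and 23.1 CPM in 2C::GFP+/SA and 1.40 and 2.85 CPM in 2C::GFP+. Their median log2 differences, 1.58 and 1.97, stood beside 0.04 and 0.01 over all genes.

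Of 20 activator genes (the MLL complex, DOT1L and elongation partners), 1 rose and 3 fell in 2C::GFP+ against mESC (median -0.22). In 2C::GFP+/SA against 2C::GFP+, 1 rose and 7 fell (median -0.18). Over all tested genes, 15.2% rose and 9.12% fell in the first comparison, and 14.9% and 13.8% in the second. Aff1, a subunit of the elongation complex that works with DOT1L, fell by 1.15 ± 0.13 (adjusted p = 3.49e-05) and by 1.06 ± 0.14 (adjusted p = 9.01e-05) in these comparisons. The 1 that rose was Aff4 in the first (by 0.47 ± 0.13, edgeR adjusted p = 0.0201) and Kdm6a in the second (by 0.76 ± 0.13, adjusted p = 0.000675). Among 11 TALE homeobox genes (the PBX, MEIS and PKNOX cofactors that bind DNA beside Hox proteins, and the related TGIF genes), 1 (Pbx3) rose and 0 fell in 2C::GFP+ against mESC (median 0.17). In 2C::GFP+/SA against 2C::GFP+, 6 fell and 0 rose (median -0.63), Pbx2 by 1.34 ± 0.14 (adjusted p = 1.69e-05) with 35.8 and 32.7 CPM in 2C::GFP+/SA and 86.1 and 88.1 CPM in 2C::GFP+. No gene of these lists was called in 2C::GFP+/SGC against 2C::GFP+, where edgeR called 0 of all 20608 genes tested.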

How the data were processed

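RNA was extracted with Trizol and poly(A)-selected, per the labels' protocols. FastQC 0.11.9, Trim Galore 0.6.5, STAR 2.7.4a, featureCounts 2.0.0 and the build mm10/GRCm38 are named, with no role or order, in the submitters' processing notes, and the strand setting was not stated in the sources used here. The authors deposited raw counts per gene and, in a second table, TPM values. Low counts were mostly even (69.6 to 73.3% of genes with 1 to 20 counts), so a count may not be an independent fragment, and intervals and floors cover counting error only. Of 55573 genes, 93 had no entry in GENCODE M21.

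Counts were tested with edgeR 4.0.16 (R 4.3.3; TMM factors 0.942 to 1.06, filterByExpr, robust quasi-likelihood fit of all 8 libraries with 1 mean per group, 4 residual degrees of freedom), and p-values were adjusted by Benjamini-Hochberg over 20608 genes with a threshold of 0.05. CPM are counts scaled by library size and TMM factor. Levels of different members were compared in the deposited TPM only. Marker lists were summed in CPM, which is not scaled by gene length. DESeq2 1.42.0, limma 3.58.1 on log2(TPM + 1) or log2(TPM + 0.1), other filters and scaling, a replicate term and leaving out each library were alternatives. Fold changes are given for called members, and library values for called members with a mean of at least 1 CPM in a group, and other values were added after they were seen. From other lists (cofactors, ParaHox, activators, Polycomb, retinoic acid, Polycomb-marked regulators, neighbours within 200 kb, cell type markers), counts and a few genes with the smallest adjusted p are named. The members and lists were chosen with earlier results of these data known. Other cell types that the study design mentions were not analysed here, and some genes that the naming rule selects are not reported here.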

Additional observations from a re-analysis of the deposited data

How the results depend on the processing

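Of 30 calls on members, 11 held under all 16 alternatives and 18 ended without some single library, and no log2 difference of a called member changed sign. In 2C::GFP+ against mESC, 11 members were called higher, against 5 with limma on log2(TPM + 1) and 4 to 12 when a library was left out, and 6 were called lower, against 3 under a stricter filter (1 CPM in 2 libraries) and 3 to 6 when a library was left out. The stricter filter left 20 members tested, and Hoxc6, Hoxc10 and Hoxc11 were not among them. In 2C::GFP+/SGC against 2C::GFP+, 0 were called, against 1 higher (Hoxb1) without a filter and 1 with DESeq2. In 2C::GFP+/SA against 2C::GFP+, 9 were called higher, against 3 to 11 when a library was left out, and Halr1 was the 1 called lower throughout. In 2C::GFP+/SA against 2C::GFP+/SGC, 3 were called higher, against 5 with DESeq2, 5 with limma on log2(TPM + 1) and 2 to 3 when a library was left out, and 0 lower, against 1 (Halr1, adjusted p = 0.0441) with limma on log2(TPM + 1). The cause was not tested. On log2(TPM + 0.1) the median of all genes in that comparison was -0.17, against -0.02 on counts.

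With the replicate number as a block, 14 members were called higher and 6 lower in 2C::GFP+ against mESC, 0 in 2C::GFP+/SGC against 2C::GFP+, 12 higher and 1 lower in 2C::GFP+/SA against 2C::GFP+, and 4 higher in 2C::GFP+/SA against 2C::GFP+/SGC. Deviations of same-numbered libraries correlated at 0.0411 to 0.142, so the numbers were not shown to pair the samples. Where leaving out a library left a group with 1 library, that library was assumed to vary like the other groups. The second libraries limit what can be seen of members near 0.244 CPM.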
